A study of Mus musculus with 2 samples.

Results

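Interleukin 17 and gamma delta genes were examined as 5 named members, Il17a, Trdc, Cd163l1, Tcrg-C1 and Il23r, out of the 27998 genes in the deposited feature list. They were matched by gene symbol. Il17a, Cd163l1 and Il23r were found, so 3 of the 5 were measured, while Trdc and Tcrg-C1, the constant segments of the gamma delta receptor, were not analysed here. No cell is therefore called gamma delta from its receptor, and cells are described by the measured members alone. The measurement was droplet single-cell RNA sequencing of sorted CD45+ DAPI- leukocytes from YUMM1.7 tumours, which are grown from a mouse melanoma line. The tumours had grown for 19 days after injection of 100000 cells, in Matrigel, under the flank skin of knock-in mice. The APOE4 group carried human APOE4 and the APOE2 group human APOE2, so both groups carry a human APOE variant and no group with mouse Apoe was compared. Each group is 1 library, for which 10000 sorted cells per mouse were pooled over 6 mice, so animals cannot be told apart.

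The authors annotated 5385 cells of the APOE4 library and 4665 of the APOE2 library with 26 labels. The libraries held 37349222 UMIs (unique molecular identifiers, counted molecules) for APOE4 and 41207514 for APOE2, with a median of 5560 UMIs per annotated cell in APOE4 and 7160 in APOE2. The 4 T labels (CD4+, CD8+, NKT and Ki67+ CD8+ T cells) held 984 cells in APOE4 and 481 in APOE2, with medians of 3637 and 3727 UMIs. Their make-up differed, since the CD8+ label had 477 cells in APOE4 and 113 in APOE2 while the CD4+ label had 303 in APOE4 and 237 in APOE2. With 1 library per genotype there is no replicate, so no test between genotypes was possible. Every interval is a 95% interval that covers counting error alone, and levels are in CPM, a gene's UMIs scaled to a common total of UMIs in the cells named. Cells of 1 library are not replicates. The libraries shared 9 barcodes, of which 1 in APOE4 and 2 in APOE2 carry a T label.

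Interleukin 17A is a cytokine that acts on epithelial and stromal cells, which answer with chemokines that draw neutrophils. In mice it is made by CD4+ T helper 17 cells and by gamma delta T cells that leave the thymus already committed to it, many of which live in skin. Interleukin 23, a heterodimer of the Il23a and Il12b products, sustains these cells through a receptor made of the Il23r and Il12rb1 products. Cd163l1, also called Scart1, encodes a scavenger receptor of the CD163 family that in mice marks interleukin 17-producing gamma delta T cells.

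In mm10 (GRCm38, GENCODE M21), Il17a lies at chr1:20730905-20734496 on the plus strand, 42650 bases from its paralogue Il17f. Il23r lies at chr6:67422932-67491855 on the minus strand. Cd163l1 lies at chr7:140218267-140231145 on the plus strand, 16139 bases from the related gene 5830411N06Rik (Scart2), with which it may share reads. None of the 3 overlaps another annotated gene. The 250 bases upstream of each start are shown because many nuclear receptors bind the hexamer AGGTCA. They come from RefSeq (GRCm38.p6), run 5′ to 3′ on the gene's strand, and span chr1:20730655-20730904, chr6:67491856-67492105 and chr7:140218017-140218266. Capitals mark AGGTCA or its reverse complement TGACCT.
Il17a: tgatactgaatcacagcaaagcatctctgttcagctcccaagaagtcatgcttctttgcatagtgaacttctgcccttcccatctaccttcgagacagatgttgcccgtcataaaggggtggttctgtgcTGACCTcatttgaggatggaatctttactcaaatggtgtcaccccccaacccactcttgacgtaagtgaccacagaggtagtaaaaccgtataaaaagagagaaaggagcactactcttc
Il23r: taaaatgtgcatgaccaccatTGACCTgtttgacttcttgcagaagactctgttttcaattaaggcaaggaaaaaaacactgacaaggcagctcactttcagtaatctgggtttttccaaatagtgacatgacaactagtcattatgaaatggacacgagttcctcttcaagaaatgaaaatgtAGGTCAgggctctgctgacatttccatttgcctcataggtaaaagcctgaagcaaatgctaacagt
Cd163l1: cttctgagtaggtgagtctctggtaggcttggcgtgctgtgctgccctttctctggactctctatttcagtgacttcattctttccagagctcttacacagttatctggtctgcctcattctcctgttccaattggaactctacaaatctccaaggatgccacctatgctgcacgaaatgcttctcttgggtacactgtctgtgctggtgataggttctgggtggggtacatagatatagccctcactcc
The Il17a window holds 1 match, starting 120 bases before the gene. The Il23r window holds 2, starting 66 and 229 bases before it, and the Cd163l1 window holds none. Of 32851 upstream windows of the same length, 14.0% hold a match on either strand, so a match describes the letters and not a site in use.

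Most member UMIs lay in the authors' CD4+ T label. For Il17a it held 247 of 362 UMIs (68.2%) in APOE4 and 228 of 305 (74.8%) in APOE2. For Cd163l1 it held 360 of 517 UMIs (69.6%) in APOE4 and 114 of 220 (51.8%) in APOE2. Il23r was the scarcest member, with 18 of 28 UMIs (64.3%) in that label in APOE4 and 7 of 25 (28.0%) in APOE2. The Diverse label came next among labels for Cd163l1 in both libraries, with 89 UMIs in APOE4 and 47 in APOE2. Its cells hold T and myeloid genes together, since of those with no member 87.6% in APOE4 and 88.0% in APOE2 had a UMI of a Cd3 chain and 96.8% and 94.5% one of Lyz2. B cells, which should lack the members, had 0 UMIs of each in 62 cells of APOE4 and 36 of APOE2, which allows shares of cells with a UMI of up to 4.84% and 8.33% at 3 counts. In the larger monocyte and MDSC labels together, Il17a was found in 2 of 1940 cells of APOE4 (0.103%) and 0 of 1534 of APOE2, which allows up to 0.196%. There Cd163l1 was found in 3 cells of each library, and Il23r in 1 of each. Together these labels had median depths of 5109 UMIs in APOE4 and 3798 in APOE2, but M-MDSC 1, the largest MDSC label, was shallower than the T labels at 1619 and 1631.

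**Figure D1:**
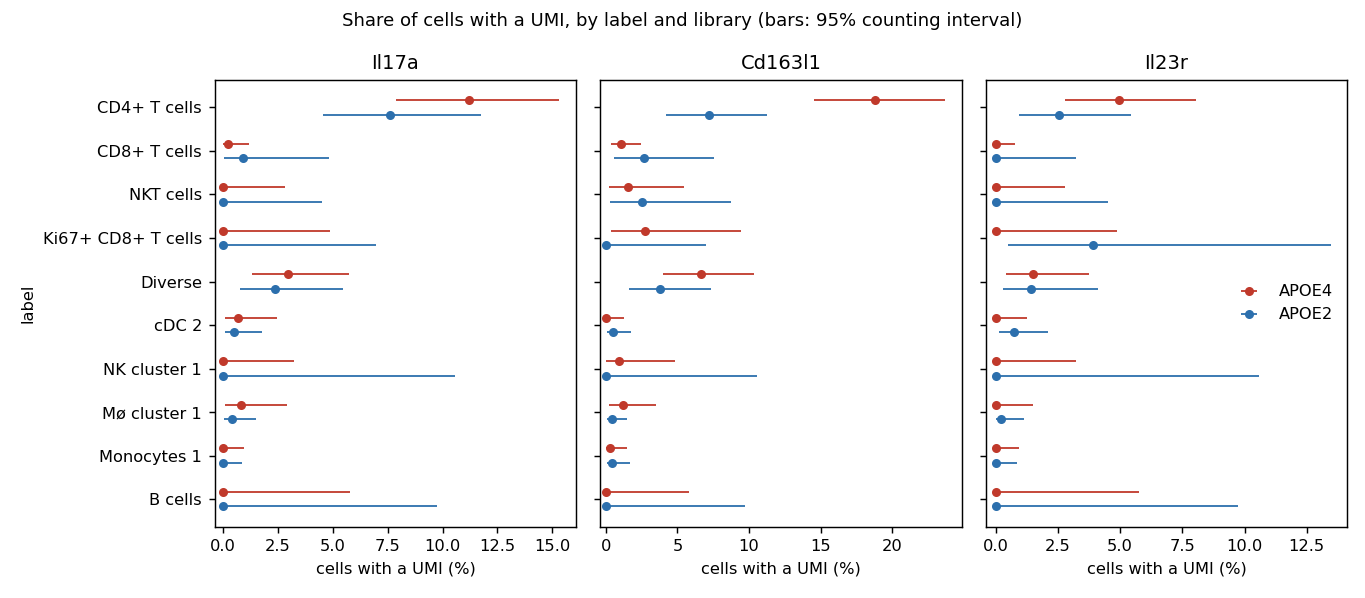
Percent of cells with at least 1 UMI of Il17a, Cd163l1 or Il23r (x axis) in 10 labels (y axis), APOE4 in red above APOE2 in blue; bars are exact 95% counting intervals. The CD4+ T label stands highest for Il17a and Cd163l1 in both libraries, and its Cd163l1 intervals (14.6 to 23.7% in APOE4, 4.23 to 11.2% in APOE2) do not overlap.

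Il17a, the cytokine gene, was found in 34 of 303 CD4+ label cells of APOE4 (11.2%) and 18 of 237 of APOE2 (7.60%), a ratio of shares of 1.48 with an interval of 0.856 to 2.55 that includes 1. The level was 205 CPM in APOE4 and 254 CPM in APOE2, a ratio of 0.809 (0.673 to 0.972). That order turned on 1 cell. In APOE4 the cells with Il17a held a median of 5 UMIs and at most 30, followed by 20. In APOE2 they also held a median of 5, but 1 cell held 108 of the 228 UMIs (47.4%), and the next held 22. Without the highest cell of each library the ratio was 1.35 (log2 0.43, 0.11 to 0.77), on the other side of 1. Over all 4 T labels Il17a stood at 56.6 CPM in APOE4 and 101 CPM in APOE2, a ratio of 0.559 (0.467 to 0.67), and without the highest cells at 0.891 (log2 -0.17, -0.48 to 0.15). Its share of cells was 3.56% in APOE4 and 3.95% in APOE2. In the CD8+ label it was found in 1 cell of each library, with 8 UMIs in APOE4 and 14 in APOE2, and NKT and Ki67+ CD8+ cells had 0 UMIs. Over all annotated cells the ratio was 1.28 (1.10 to 1.5). There 1 cDC 2 cell held 50 of the 362 UMIs in APOE4, and the CD4+ label cell named above 108 of the 305 in APOE2. The direction of the Il17a difference thus depended on the cells taken as the total and, in the CD4+ label, on a single APOE2 cell.

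Cd163l1, the scavenger receptor gene, was found in 57 of 303 CD4+ label cells of APOE4 (18.8%) and 17 of 237 of APOE2 (7.17%), a ratio of shares of 2.62 (1.57 to 4.39). The label's level was 299 CPM in APOE4 and 127 CPM in APOE2, a ratio of 2.36 (1.90 to 2.94). The cells that had it held much the same amount, with a median of 6 UMIs and at most 16 in APOE4 and a median of 6 and at most 15 in APOE2. In this label the share of cells with the gene thus differed between the libraries, while its median per cell was equal. Over the 4 T labels Cd163l1 was found in 6.71% of cells in APOE4 and 4.57% in APOE2. That ratio of shares, 1.47 (0.917 to 2.35), has an interval that includes 1. The Cd163l1 level there was 85.6 CPM in APOE4 and 51.4 CPM in APOE2, a ratio of 1.67 (1.36 to 2.06). Without the shared barcodes, which took 123 APOE2 UMIs to 111, the ratio was 1.84. In the other T labels it was found in 5 CD8+, 2 NKT and 2 Ki67+ CD8+ cells of APOE4 and in 3, 2 and 0 such cells of APOE2. Over all annotated cells it stood at 14.3 CPM in APOE4 and 5.65 CPM in APOE2, a ratio of 2.54 (2.17 to 2.99). At an equal 1500 UMIs per cell, with 11 and 9 shallower cells of the CD4+ label left out of APOE4 and APOE2, 18.2% of its cells in APOE4 and 7.02% in APOE2 kept a Cd163l1 UMI. The same thinning left Il17a in 9.59% of them in APOE4 and 6.58% in APOE2.

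Il23r, the receptor gene, was found in 15 of 303 CD4+ label cells of APOE4 (4.95%) and 6 of 237 of APOE2 (2.53%), at 14.9 CPM in APOE4 and 7.79 CPM in APOE2. The ratio of levels was 1.92 (0.765 to 5.44), so a difference was not detectable at this depth. No T label cell held more than 2 Il23r UMIs in either library. Over the 4 T labels it stood at 3.99 CPM in APOE4 and 3.76 CPM in APOE2, a ratio of 1.06 (0.453 to 2.68). The Ki67+ CD8+ label had 0 UMIs in APOE4 and 2 in APOE2.

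Set against all genes with at least 20 UMIs, the members' ratios were read beside how many genes passed 1.5-fold. In the T labels 1 of the 3 measured members, Cd163l1, was higher in APOE4 by that rule, as were 7.42% of 10082 genes, and 1, Il17a, was lower, as were 9.4%. In the CD4+ label Cd163l1 and Il23r were higher by it, as were 9.69% of 7898 genes, and no member was lower, against 7.63%. Over all annotated cells Cd163l1 was higher by it, as were 10.3% of 13953 genes, and no member was lower, against 9.74%.

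Il17a and Cd163l1 often occurred in the same cells. They were found together in 30 T label cells of APOE4, where the product of their shares gives 2.35, and in 15 of APOE2, where it gives 0.869. Both genes lie mostly in the CD4+ label, which lowers these products. Within that label 29 cells of APOE4 had both, against a product of 6.40, and 14 of APOE2, against 1.29. Of the Il17a cells, 30 of 35 (85.7%) in APOE4 and 15 of 19 (78.9%) in APOE2 had Cd163l1. Looked at from the receptor, 45.5% of the 66 Cd163l1 cells in APOE4 (33.1 to 58.2%) and 68.2% of the 22 in APOE2 (45.1 to 86.1%) had Il17a. Within the CD4+ label the shares were 50.9% of 57 cells in APOE4 (37.3 to 64.4%) and 82.4% of 17 in APOE2 (56.6 to 96.2%). In both comparisons the intervals overlap, which does not show that the shares are alike, and no ratio of these shares was made. In the CD4+ label, cells with Cd163l1 and no Il17a UMI numbered 28 in APOE4 and 3 in APOE2. All 15 Il23r cells of APOE4 had Cd163l1, as did 4 of 8 in APOE2, while 4 of the 15 in APOE4 and 3 of the 8 in APOE2 had Il17a.

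**Figure D2:**
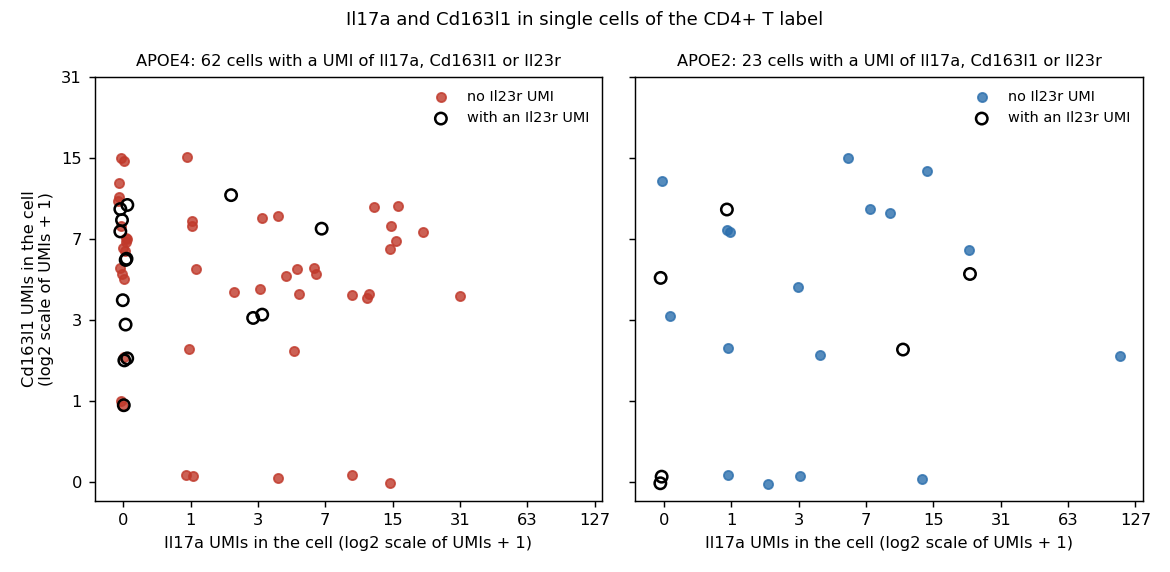
Il17a UMIs (x axis) against Cd163l1 UMIs (y axis) in each CD4+ T label cell with a UMI of a measured member, both on a log2(UMIs + 1) scale with a small random offset; APOE4 is left, APOE2 right, and open rings mark cells with an Il23r UMI. The 62 APOE4 cells include a column with Cd163l1 and no Il17a, and 1 of the 23 APOE2 cells holds 108 Il17a UMIs.

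Cells with at least 2 of the 3 measured members, called member cells from here on, numbered 41 of 984 T label cells in APOE4 (4.17%) and 16 of 481 in APOE2 (3.33%), a ratio of 1.25 (0.71 to 2.21). Each of these 41 and 16 cells had Cd163l1, so their shares are not separate from those of Cd163l1 cells given above. All but 1 in each library carried the CD4+ label, where they made up 13.2% of cells in APOE4 and 6.33% in APOE2, a ratio of 2.09 (1.18 to 3.68). As a share of all annotated cells they were 0.761% in APOE4 and 0.343% in APOE2, a ratio of 2.22 (1.25 to 3.95). The T label ratio is the smallest of the 3, and its denominator holds the CD8+ label with 477 cells in APOE4 and 113 in APOE2. Member cells had a median of 3098 UMIs in APOE4 and 3685 in APOE2, so they were not deeper than the T label cells with no member, at 3667 and 3727. Their mitochondrial percent was higher, with medians of 4.83% in APOE4 and 5.29% in APOE2, against 3.72% and 3.96% in cells with no member. Among cells under 5% mitochondrial UMIs, 26 member cells in APOE4 and 7 in APOE2 remained, and the ratio of their T label shares was 1.61, with a log2 interval of -0.50 to 1.88.

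On the deposited embedding, a map in which the authors placed similar cells near each other, member cells of the CD4+ label lay close together. They centred at 10.1 and 5.92 in APOE4 and at 10.1 and 5.84 in APOE2 (medians of both coordinates), while CD4+ label cells with no member centred at 8.17 and 4.46 in APOE4 and 8.10 and 4.42 in APOE2. The map was made from expression that includes the members, so this is a description. A circle of radius 0.5 around the common centre was drawn after these values were seen. It held 62 CD4+ label cells in APOE4 (20.5% of the label) and 26 in APOE2 (11.0%), a ratio of 1.87 (1.22 to 2.85), and no cell of another label. It took in 39 of the 40 CD4+ label member cells in APOE4 and all 15 in APOE2. Inside it, Cd163l1 was found in 87.1% of cells in APOE4 (76.2 to 94.3%) and 61.5% in APOE2 (40.6 to 79.8%). Il17a was found in 46.8% of them in APOE4 (34.0 to 59.9%) and 65.4% in APOE2 (44.3 to 82.8%), and Il23r in 22.6% and 23.1%. Foxp3, the regulatory T cell factor, had 0 UMIs inside the circle in both libraries. 5830411N06Rik, the related receptor gene, was found in 9.68% of the circle's cells in APOE4 and 26.9% in APOE2. In the T labels it was found in 9 cells of APOE4 and 10 of APOE2, of which 2 and 3 also had Cd163l1.

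**Figure D3:**
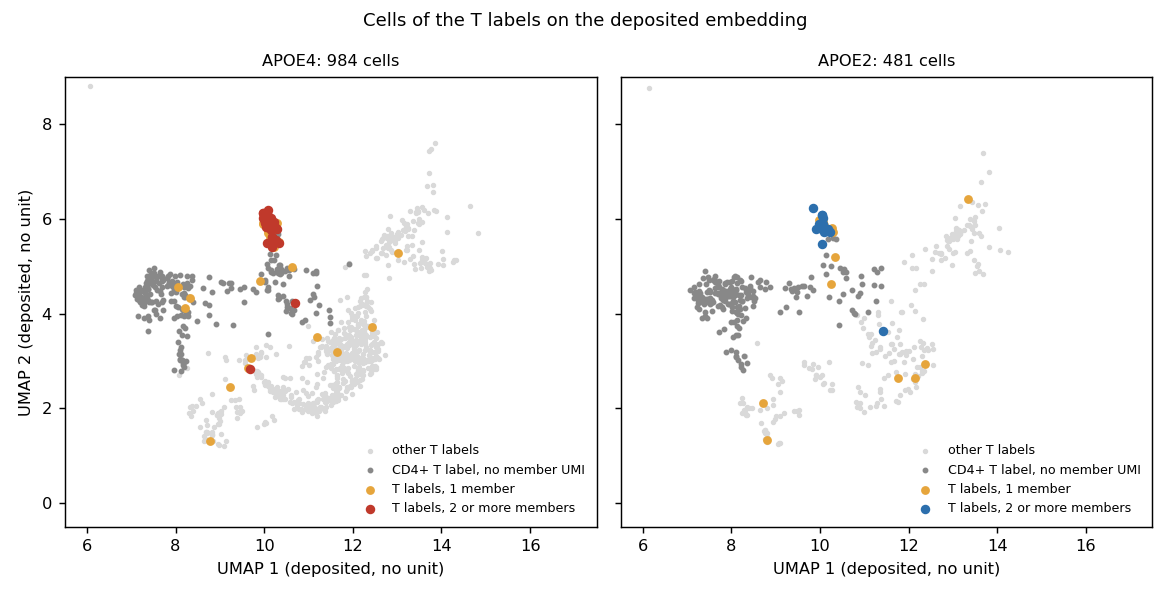
Cells of the 4 T labels on the deposited UMAP embedding (both axes without unit), APOE4 left and APOE2 right; light grey are other T labels, dark grey CD4+ label cells with no member UMI, orange cells with 1 member, and red or blue cells with 2 or more. Member cells of the CD4+ label gather above the label's body, 39 of 40 in APOE4 and 15 of 15 in APOE2 within the circle described; those of the CD8+ label, 1 in each library, lie apart; 4 APOE4 cells without members lie outside the window.

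Member cells were then compared with T label cells that had no member UMI, within each library, over 8037 genes with at least 20 UMIs per library. The cells with none include all 4 T labels. The filter summed both sets of cells, so a gene could pass it mainly through its UMIs in member cells. In APOE2, Il1r1 had 20 UMIs in member cells and 3 in the others, Blk 21 and 5, and Zbtb16 16 and 7. This favours high ratios in the ranking and in the counts below. By a 2-fold rule met in both libraries, 3.72% of genes were higher in member cells and 3.11% lower. The 3 members chose the cells and are left out of these counts. Every member cell held a UMI of Cd3d, Cd3e or Cd3g, subunits of the T cell receptor complex. Cd4 and Foxp3 had 0 UMIs in all 41 member cells of APOE4 and all 16 of APOE2, although most carry the CD4+ label, against 360 and 408 Cd4 UMIs in cells with no member. At the 3-count limit the Cd4 ratio was at most 0.249 in APOE4 and 0.265 in APOE2. Cd8a had 1 UMI in APOE4 and 0 in APOE2, and Cd8b1 had 0 in APOE4 and 10 in 1 cell of APOE2.

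Several genes known from gamma delta or innate-like T cells had high ratios. Blk, a Src-family kinase of B cells and of interleukin 17-producing gamma delta cells, was at 379 CPM in member cells and 2.59 CPM in the others in APOE4, a ratio of 146 (75.7 to 311), and at 335 and 2.22 CPM in APOE2, a ratio of 151 (55.5 to 513). Lck, the Src-family kinase that most T cells use, ran the other way, with 1 UMI in the 41 member cells of APOE4 (ratio 0.0164, 0.000415 to 0.0914) and 5 UMIs, all in 1 cell, in the 16 of APOE2 (0.231, 0.0749 to 0.542). Zbtb16, which encodes PLZF, the factor of innate-like T cells, was 29.9-fold higher in APOE4 member cells and 82.3-fold in APOE2. Tmem176a and Tmem176b, membrane protein genes, were 30.5-fold and 27.2-fold higher in APOE4 and 14.9-fold and 13.1-fold in APOE2. Of the 12 gamma delta surface and lineage genes listed, 7 besides Cd163l1 had enough UMIs, of which 5 were higher by the rule (Blk, Zbtb16, Tmem176a, Tmem176b and Serpinb1a) and 1, Cd27, lower. Cd27, which in mice marks gamma delta cells that make interferon gamma instead, had 3 UMIs in APOE4 member cells and 1 in APOE2. Sox13, a lineage factor of these cells in mice, fell below the UMI filter, with 16 UMIs in member cells and 1 in the others in APOE4 and 9 and 1 in APOE2. So did Kcnk1, with 27 and 7 UMIs in APOE4 and 7 and 0 in APOE2, and Sox4, with 0 and 15 and 0 and 2. 5830411N06Rik, also below it, had 1 and 21 UMIs in APOE4, a ratio of 1.42 (0.0344 to 8.84) that includes 1. In APOE2 it had 4 and 10, a ratio of 14.4 (3.30 to 49.9). The list's median log2 ratio was 4.76 in APOE4 and 3.71 in APOE2, against 0 over all genes in both.

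Of the receptors listed for the type 17 programme, some were higher. Il1r1, the interleukin 1 receptor, headed the genes that passed the filter. It stood at 295 CPM in APOE4 member cells and 0.941 CPM in the others (ratio 313, 114 to 1203). In APOE2 it stood at 319 and 1.33 CPM (ratio 240, 71.2 to 1262). It was found in 68.3% of member cells in APOE4 and 75.0% in APOE2. Of 12 such receptors with enough UMIs, 6 were higher by the rule and none lower, Il1r1, Il7r (interleukin 7 receptor), Il18r1 (interleukin 18 receptor) and the chemokine receptors Ccr6, Ccr2 and Cxcr6. The Ccr6 ratio in APOE2, 2.40, rested on 3 UMIs in member cells, and its interval (0.477 to 7.48) includes 1. Ccr2 stood at 917 CPM in the whole CD4+ label in APOE4 and 802 CPM in APOE2, against 1039 and 942 CPM in member cells. For Il1r1, Il7r, Il18r1 and Cxcr6 the label stood further below member cells. Il7r was 5.38-fold higher in APOE4 and 4.34-fold in APOE2. Il6ra and Il6st, the receptor chains for interleukin 6, which T helper 17 cells need, had 0 UMIs in member cells of both libraries. At the 3-count limit the Il6st ratio was at most 0.403 in APOE4 and 0.777 in APOE2, while for Il6ra this depth sets no limit below 1. Il12rb1, the partner chain of Il23r, had 5 UMIs in APOE4 member cells and 1 in APOE2.

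Among type 17 transcription factors 1 of 7, Rora, was higher by the rule, by 3.58-fold in APOE4 and 2.98-fold in APOE2. Rora stood at 776 CPM in the whole CD4+ label in APOE4 and 885 CPM in APOE2, against 1313 and 1612 CPM in member cells. Il17re, a receptor chain of the interleukin 17 family, had 24 UMIs in member cells and 8 in the others in APOE4, and 8 and 1 in APOE2. Il17f had 7 UMIs in 4.88% of APOE4 member cells and 0 in APOE2, and Il22 had 0 UMIs in every cell of both libraries. Type 1 genes, which mark interferon gamma-making cytotoxic and helper cells, were lower for 4 of 10, Cxcr3, Nkg7, Gzmb and Ccl5, and higher for none. These ratios are against cells of all 4 T labels. In APOE2 the whole CD4+ label stood at 126 CPM of Nkg7 and 589 CPM of Ccl5, near member cells at 128 and 639 CPM. In APOE4 the label stood at 416 and 748 CPM, against 84.3 and 204 CPM in member cells. For Gzmb and Cxcr3 the label stood above member cells in both libraries. Ifng had 1 UMI in APOE4 member cells and 0 in APOE2, against 1226 and 106 in the others. In APOE2 this depth sets no limit below 1 for Ifng. The CD4+ label as a whole held 81 Ifng UMIs in APOE4 and 7 in APOE2.

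Other genes with high ratios were Actn2, encoding an alpha-actinin, at 65.5-fold in APOE4 and 33.1-fold in APOE2, and Aqp3, a water and glycerol channel, at 26.7-fold and 52.6-fold. Bcl2a1a, a survival gene of the BCL2 family with near-identical copies, was 25.3-fold and 33.2-fold higher. Igf1r and Irs2, a receptor and an adaptor of insulin-like signalling, were 15.1-fold and 7.36-fold higher in APOE4 and 17.6-fold and 7.48-fold in APOE2. Ltb4r1, the leukotriene B4 receptor, was 15.4-fold higher in APOE4 and 9.38-fold in APOE2. The genes with the lowest ratios were costimulatory receptor genes (Tnfrsf4, Tnfrsf18, Tnfrsf9), the adhesion gene Cd2, the adaptor gene Fyb, the interferon-induced Ifi27l2a and 4 neutrophil genes. S100a9 had 2 UMIs in member cells of APOE4 and 1 in APOE2, S100a8, Camp and Ngp had 0, and Lyz2 had 5 in APOE4 and 1 in APOE2. Camp and Ngp UMIs lay in 0.438% and 0.329% of the APOE4 cells with no member and 0.443% and 0.887% of those of APOE2, and S100a8 UMIs in 3.61% and 2.88%, so nearly all of those cells had 0 as well and a few carry these ratios. Of natural killer markers, Ncr1 and Klrb1c had 0 UMIs in member cells of both libraries, while Gzma had 31 in APOE4, all in 1 cell, and 1 in APOE2. Klra8 had 6 in APOE4 and 0 in APOE2, and Prf1 had 3 in APOE4 and 1 in APOE2. Of macrophage markers, Csf1r and Cd68 had 0 in both, while C1qa had 1 in APOE4 and 0 in APOE2, C1qb 0 and 2, and Ly6c2 2 and 5. Cd79a, a B cell gene, had 0 in both. Cd79b, a B cell receptor gene, was higher by the rule, with 12 UMIs in APOE4 and 4 in APOE2.

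**Figure D4:**
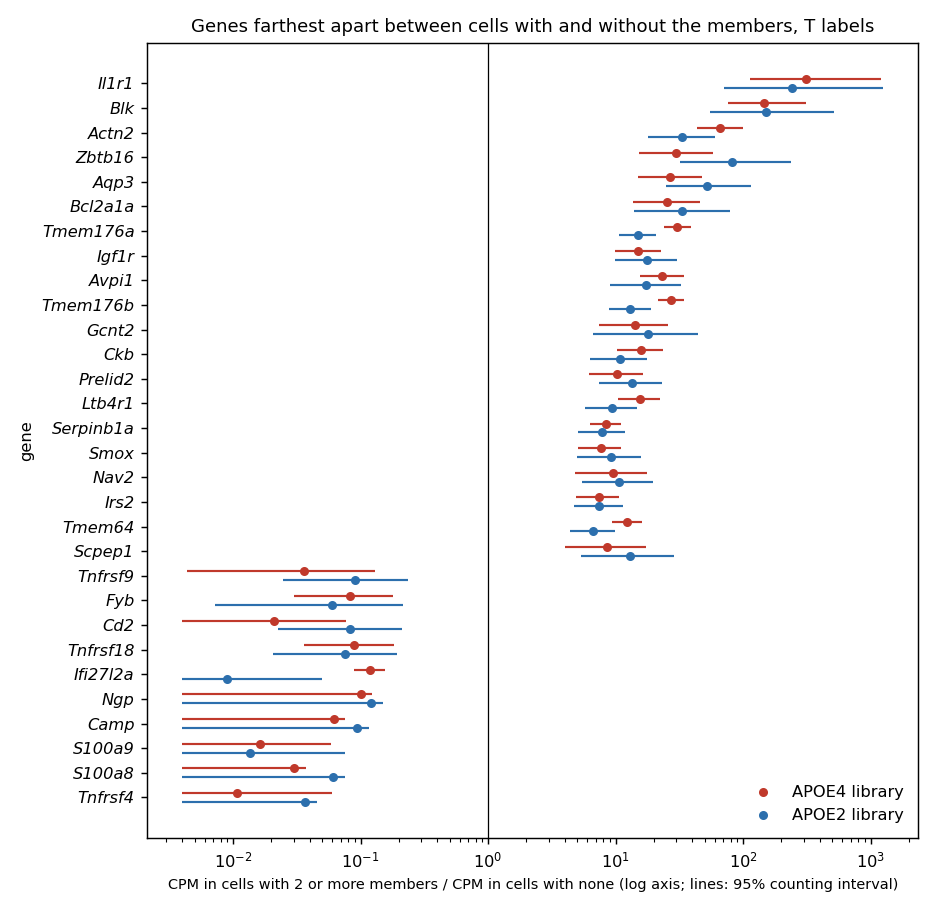
Ratio of CPM in member cells to CPM in T label cells with no member (log axis), for the 20 genes ranked highest and 10 ranked lowest, APOE4 in red above APOE2 in blue; lines are 95% counting intervals, drawn from 0.004 upward, and a gene with 0 UMIs in member cells is placed at its 3-count limit. Both libraries lie on the same side of 1 for every gene shown, which the ranking over both libraries selects for.

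Between the libraries, the other genes of the programme in the CD4+ label were read beside the same backgrounds of 9.69% higher and 7.63% lower in APOE4. Of 11 gamma delta surface and lineage genes with enough UMIs, Cd163l1 included, 6 were at least 1.5-fold higher in APOE4 and none lower. Apart from Cd163l1 these were Kcnk1, a potassium channel gene, at 42.4 CPM in APOE4 and 8.90 CPM in APOE2 (ratio 4.76, 2.24 to 11.6), Blk at 74.8 and 33.4 CPM (2.24, 1.47 to 3.51), Tmem176b at 228 and 103 CPM (2.20, 1.73 to 2.81), Serpinb1a (1.93) and Tmem176a (1.52). The list's median log2 ratio, Cd163l1 included, was 0.60, against 0.01 over all genes tested. Blk, Tmem176a, Tmem176b and Serpinb1a were also higher in member cells, and Kcnk1 had most of its T label UMIs there. Member cells made up 13.2% of the label in APOE4 and 6.33% in APOE2. The list's values are thus not separate from the number of member cells, and the part of that number in them was not tested. Il1r1 stood at 41.5 CPM in APOE4 and 28.9 CPM in APOE2, a ratio of 1.44 (0.877 to 2.40) that includes 1. Of 13 receptors of the programme, Il23r and Cxcr6 were higher by the rule and none lower, and 5 of 9 type 1 genes were higher too, Ifng most of all at 67.3 CPM in APOE4 and 7.79 CPM in APOE2. In the same label the CD8 genes were also higher, Cd8a at 29.9 CPM in APOE4 and 5.56 CPM in APOE2 and Cd8b1 at 51.5 and 5.56 CPM, and their part in the type 1 values was not tested. No test between lists was made.

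Within member cells, 17.4% of 1819 genes were at least 1.5-fold higher in APOE4 and 11.1% lower, and of the 3 members Il23r was higher by the rule and Il17a lower. Il23r had 18 UMIs in APOE4 and 4 in APOE2, a ratio of 1.98 with an interval (0.652 to 8.04) that includes 1. Cd163l1 was at 1700 CPM in APOE4 and 1660 CPM in APOE2, a ratio of 1.02 (0.81 to 1.30). Il17a was at 1573 CPM in APOE4 and 3560 CPM in APOE2, a ratio of 0.442 (0.366 to 0.534), and at 1402 and 1917 CPM without the highest cell of each library, a ratio of 0.732 (0.578 to 0.929), no longer past 1.5-fold. Because holding Il17a, Cd163l1 or Il23r helped to make a cell a member cell, the levels of these 3 are a description. Blk had a ratio of 1.13 (0.672 to 1.97) and Il7r 0.907 (0.732 to 1.13). Of 9 gamma delta surface and lineage genes with enough UMIs, Cd163l1 included, 2 were higher by the rule, Tmem176b and Kcnk1. The list had 1 lower gene, Zbtb16, at 0.55 (0.271 to 1.135), an interval that includes 1. Tmem176b had a ratio of 1.52 (1.07 to 2.21). Areg, the growth factor amphiregulin, stood at 316 CPM in APOE4 and 782 CPM in APOE2 (0.404, 0.264 to 0.618), but 29 of its 45 UMIs in APOE4 and 33 of 49 in APOE2 lay in 1 cell each. Ccl5 rested on 1 cell in the same way, with 27 of 29 UMIs in APOE4 and all 40 in APOE2. Ifi27l2a, an interferon-induced gene, had 54 UMIs in 16 of 41 member cells in APOE4 and 1 UMI in 1 of 16 in APOE2, a ratio of 23.8 (4.09 to 956). It was higher in APOE4 in T label cells with no member too, at 3194 CPM against 1786 CPM in APOE2.

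Genes of interleukin 17 and interleukin 23 signalling were read by label, without a test of which cells signal to which. Il23a, a subunit of interleukin 23, had 58 of its 146 UMIs in APOE4 and 88 of 120 in APOE2 in the M-MDSC 1 label, while M-MDSC 2 held 57 in APOE4 and 6 in APOE2. Il12b, the other subunit, which interleukin 12 also contains, lay in migratory DCs, with 1593 of 1626 UMIs (98.0%) in APOE4 and 2923 of 3152 (92.7%) in APOE2. The labels highest in the 2 subunits thus differed. Il1b, whose receptor headed the member cell genes, was spread over myeloid labels, with 128751 UMIs in APOE4 and 118314 in APOE2. Of the receptor for interleukin 17A, Il17ra was found in nearly every label, at 74.3 CPM over all annotated cells in APOE4 and 48.8 CPM in APOE2 (ratio 1.52, 1.44 to 1.62). Its partner chain Il17rc lay in the stromal label, with 24 of 31 UMIs in APOE4 and 34 of 41 in APOE2.

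**Figure D5:**
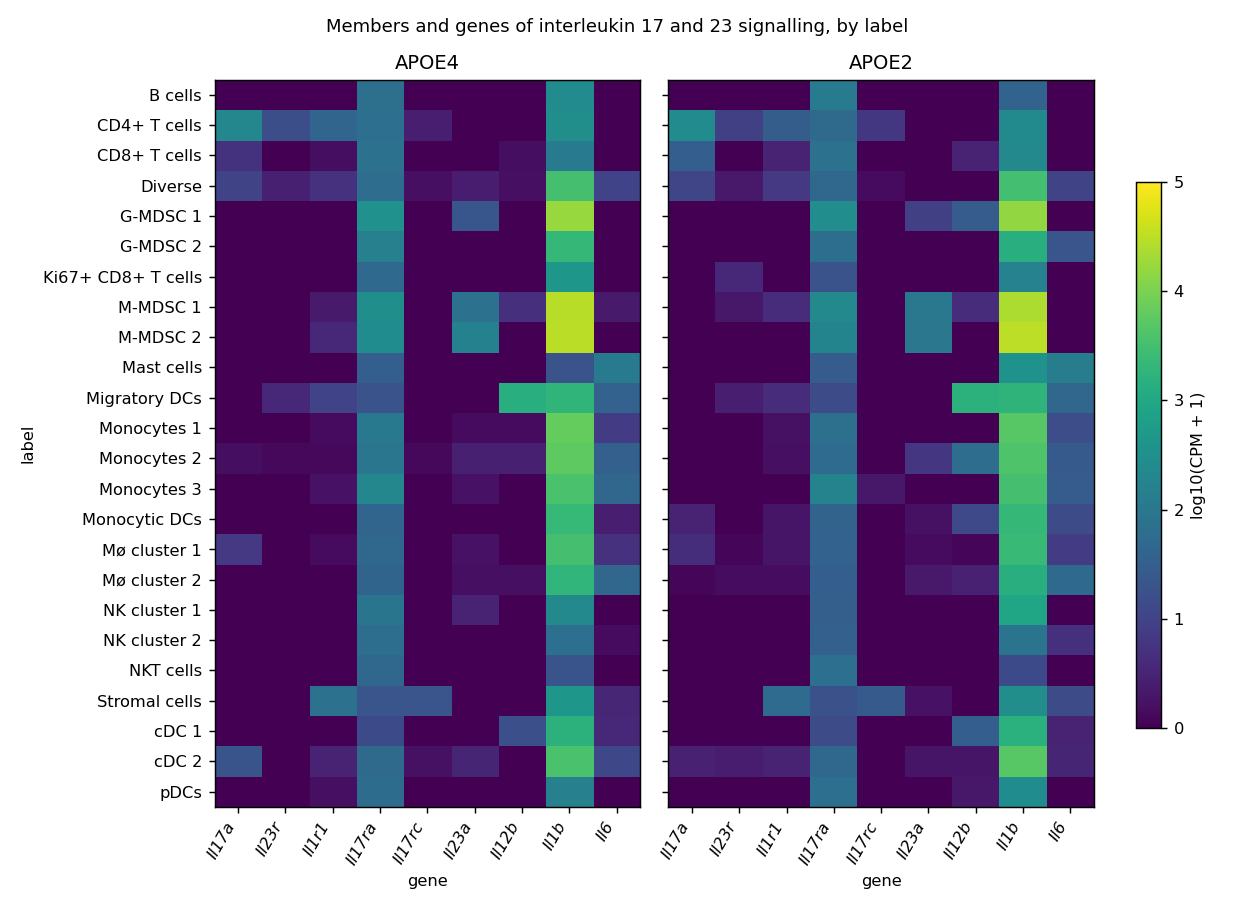
Level of 9 genes (x axis) in labels with at least 20 cells in each library (y axis), APOE4 left and APOE2 right, as log10(CPM + 1) by colour. Il17a is highest in the CD4+ T label, Il1r1 and Il17rc in the stromal label, Il23a in the M-MDSC labels and Il12b in the migratory DCs.

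Outside the T labels a member was found in 40 of 4401 cells of APOE4 and 31 of 4184 of APOE2. These cells were deep, with medians of 11479 UMIs in APOE4 and 10946 in APOE2. Of them 20 in APOE4 and 11 in APOE2 carried the Diverse label, where all 20 in APOE4 had a UMI of a Cd3 chain and one of Lyz2, a myeloid gene. Of the 11 in APOE2, 10 had a Cd3 UMI and 10 a Lyz2 UMI. Cells holding at least 2 members outside the T labels numbered 11 in APOE4 and 9 in APOE2. Of the 58 Il17a UMIs in the cDC 2 label of APOE4, 50 came from 1 cell. The part of mixed droplets in these values was not tested, but 4 of the 20 Diverse cells with a member in APOE4 and 3 of the 11 in APOE2 were among the 5% of each library with the highest Scrublet doublet score. Of the 20 such cells of each library in other labels, 0 in APOE4 and 5 in APOE2 were, and of T label member cells 0 in both.

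Across the 52 combinations of label and library, the genes whose CPM followed the mean profile of the 3 measured members most closely were Actn2 (Pearson r 0.986), Frmd5 (0.978), Aqp3 (0.959), Lrrc32 (0.958) and Ccr4 (0.948), followed by A630023P12Rik, Izumo1r, Arnt2, Sv2c and Itgb8, out of 11739 genes. All 10 were highest in the CD4+ T label. Ccr4, a chemokine receptor gene, Lrrc32 and Izumo1r are known from regulatory T cells. Points share libraries and depth, and the measure cannot separate member cells from other cells of that label. Actn2 and Aqp3 were also among the genes high in member cells.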

How the data were processed

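Leukocytes of 2 pooled libraries were analysed. The authors' deposited matrices give UMI counts, not normalized, from Cell Ranger (3.0.1, per the file headers) on mm10, per the submitters' processing notes. The authors' deposited cell table, made with Seurat 3.0.2 per the same notes, gives labels, the percent of mitochondrial UMIs and embedding coordinates, which are scores without unit. Strand handling, doublet removal and the naming of labels are not described in the labels or headers.

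UMIs of the members were summed per label and library and divided by the label's total (Python 3.11.15, scipy 1.17.1). Ratios are APOE4 over APOE2 with exact conditional binomial 95% intervals, level intervals are exact Poisson, shares carry Clopper-Pearson intervals, and ratios of shares the interval of a log ratio. A count of 0 was set to 3 counts in limits. Genes needed 20 UMIs over the cells compared (in each library for member cells, over both for ratios between libraries). The members and gene lists were chosen with earlier results of these data known. Named genes are the members, listed genes, the 20 highest and 10 lowest ratios of member cells in both libraries by interval bound, and the 10 most like profiles among genes with 100 UMIs; the intervals' coverage was checked on simulated data. Alternatives include thinning to 1500 UMIs, cells under 5% mitochondrial UMIs and leaving out the 5% with the highest Scrublet score (scanpy 1.11.5). Results for 1 listed gene are not reported here.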

Additional observations from a re-analysis of the deposited data

Results flagged for a closer look

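Barcodes outside the authors' annotation, which entered no comparison, still held member UMIs above the limit of 3 counts. In the APOE4 library Il17a had 7 UMIs in 4 of 304 such barcodes, and in the APOE2 library 1 UMI in 1 of 398. Cd163l1 had 6 UMIs in 3 barcodes in APOE4 and 9 UMIs in 3 barcodes in APOE2. Il23r had 0 in both.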

How the results depend on the processing

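Values are log2 ratios over the T labels. For Il17a (-0.84), 6 of 13 alternatives stayed within the interval. It was -1.35 with cells thinned, -0.57 with the Diverse label and -0.44 with equal weight per label. Alternatives chosen after seeing the data gave -0.17 without the highest cells, -0.31 in the CD4+ label alone, and a reversed 0.43 in that label without the highest cells and 0.36 over all annotated cells. The last of these takes another total. Leaving out the highest cells of the CD4+ label took out 1 APOE2 cell with 108 of the label's 228 UMIs. What lay behind the other changes was not tested. Within member cells it was -1.18, and -0.45 without the highest cells. Cd163l1 (0.74) stayed positive in all 13, at 1.19 under 5% mitochondrial UMIs, 1.14 with equal weight and, chosen later, 1.24 in the CD4+ label, 1.37 there without the highest cells and 1.35 over all annotated cells. Il23r (0.09) stayed within its interval, which includes 0, in all 13. The share of member cells (0.32) did so in 9 of 10, and was 1.15 of all annotated cells. No paired analysis was possible because each genotype has 1 library. Alternatives for Trdc and Tcrg-C1 were not run. Depth limits Il23r most, with 18 UMIs in APOE4 and 9 in APOE2.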

Other observations

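Genes that interleukin 17 is known to induce in other cells were counted as well. Over all annotated cells 3 of 8 such genes with enough UMIs were at least 1.5-fold lower in APOE4 and none higher, beside 9.74% lower and 10.3% higher over all 13953 genes. Cxcl1, a neutrophil-drawing chemokine gene, stood at 55.3 CPM in APOE4 and 136 CPM in APOE2, a ratio of 0.406 (0.385 to 0.427). Cxcl2, a related chemokine gene, stood at 1799 CPM in APOE4 and 3018 CPM in APOE2, a ratio of 0.596. Cxcl5 had 2 UMIs in APOE4 and 132 in APOE2, of which 123 lay in the stromal label. Lcn2, a neutrophil granule and epithelial gene, stood at 100.5 CPM in APOE4 and 110.0 CPM in APOE2. The label with the most Cxcl1 UMIs was Mø cluster 2, with 36.6% of them in APOE4 and 37.7% in APOE2, and for Cxcl2 it was M-MDSC 1, with 33.2% in APOE4 and 28.9% in APOE2. Mø cluster 2 held 729 Cxcl1 UMIs in 161 cells in APOE4 and 2003 in 398 cells in APOE2. M-MDSC 1 held 21547 Cxcl2 UMIs in 453 cells in APOE4 and 33951 in 515 cells in APOE2. The ratios over all annotated cells therefore mix the level within labels with the make-up of each library, and these were not separated. Other signals induce these genes too, and no link to the members was tested.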
